A study of Mus musculus with 6 samples.

Results

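The 46 genes described here encode 3 families that cut or protect the extracellular matrix of the vessel wall: 23 matrix metalloproteinases (Mmp), 19 ADAMTS proteases (Adamts) and 4 tissue inhibitors of metalloproteinases (Timp). They are all rows of the deposited count table, of 55453 rows in all, whose symbol is Mmp, Adamts or Timp followed by a number. The table holds aortic RNA of 2 homozygous and 3 heterozygous mice. The homozygous mice carried a floxed Srf allele on both chromosomes and the heterozygous mice on one, and every mouse was hemizygous for Itga8-CreERT2, a tamoxifen-activated Cre recombinase driven from the gene of a smooth muscle integrin. Both groups received the same 5 daily injections of 33 mg/kg tamoxifen, and aortae were taken 10 days after the last injection, so the control aortae also carried the driver, had received the drug and are expected to hold recombined cells with 1 working Srf copy. Age, sex and strain are not stated in the labels used here. Adventitia and endothelium were stripped from each vessel, and single aortae were frozen and not pooled. Of the labelled samples, homozygous replicate 1 was not analysed here, and the submitters state that 1 homozygous sample was set aside as an outlier or sampling error.

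Matrix metalloproteinases are zinc enzymes made as inactive precursors that cleave collagens, elastin, gelatin and cell surface proteins, either secreted or held at the cell membrane. ADAMTS proteases are secreted zinc enzymes with thrombospondin repeats that cleave proteoglycans such as versican and aggrecan, procollagen ends, fibrillin-associated proteins or von Willebrand factor. TIMPs sit in the active site of these enzymes and block it. In the aortic media, smooth muscle cells are a source of Mmp2 and of TIMPs, and matrix breakdown by these families is studied in aneurysm.

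Library totals ranged from 26177821 to 34311855 counts. Srf stood at 45.0 and 38.6 CPM (counts per 1000000 after TMM scaling) in homozygous libraries 2 and 3, against 56.1, 64.4 and 68.3 CPM in heterozygous libraries 1, 2 and 3, and the adjusted p was 0.115 by edgeR and 0.00373 by DESeq2. The groups did not overlap for Srf. Mitochondrially encoded genes took 7.95% and 7.36% of counts in homozygous and 3.95% to 5.71% in heterozygous libraries. Myh11, smooth muscle myosin, stood at 5484 and 5165 CPM in homozygous and at 9439, 8695 and 9181 CPM in heterozygous libraries. All 10 smooth muscle markers were detected, and their summed level was 15353 and 14925 CPM in homozygous and 25067 to 26219 CPM in heterozygous libraries. Markers of other cells were present despite the stripping, and the summed level separated the groups for some of these lists but not for others. Macrophage markers summed to 430 and 575 CPM in homozygous and 274 to 360 CPM in heterozygous libraries, with 12 of 12 detected and none at 0 throughout. Adipocyte markers summed to 3382 and 3620 CPM in homozygous and 1709 to 2701 CPM in heterozygous libraries, skeletal muscle markers to 853 and 2326 CPM in homozygous and 9.59 to 588 CPM in heterozygous libraries, and adventitial fibroblast markers to 2615 and 2878 CPM in homozygous and 1961 to 2610 CPM in heterozygous libraries. The gap in the fibroblast sum was narrow, and 3 of the 10 fibroblast genes were higher without overlap. Endothelial markers did not separate the groups (1214 and 472 CPM in homozygous, 818 to 1081 CPM in heterozygous libraries). Lymphocyte markers did not separate them either (10.6 and 20.8 CPM in homozygous, 7.12 to 12.6 CPM in heterozygous libraries). Erythrocyte markers summed to 23.9 and 28.9 CPM in homozygous and 37.9 to 297 CPM in heterozygous libraries, and mesothelial markers to 3.53 and 8.57 CPM in homozygous and 9.01 to 12.8 CPM in heterozygous libraries. What part these cell types and the mitochondrial share have in the values below was not tested. In whole tissue, fewer cells of a type and less RNA per cell cannot be told apart.

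Heterozygous replicate 3 stood apart from the other control libraries on the first principal component (51.6% of the variance), with homozygous replicate 3 at the opposite end.

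The 2 main inhibitors were the most abundant of the 46 genes per exon length. Timp2, which also takes part in the activation of Mmp2 at the cell surface, averaged 548 ± 46.1 TPM (counts divided by exon length and scaled to 1000000 per library) in homozygous and 488 ± 85.1 TPM in heterozygous libraries (SD, n = 2 and n = 3). Timp3, the matrix-bound inhibitor that also blocks ADAMTS enzymes, averaged 418 ± 34.4 TPM in homozygous and 503 ± 109 TPM in heterozygous libraries. These 2 levels overlapped across libraries, so their order is not fixed. Next came Adamts1 at 160 ± 4.62 TPM in homozygous and 261 ± 98.2 TPM in heterozygous libraries, Adamts10 at 158 ± 13.7 and 152 ± 15.1 TPM, Mmp23 at 136 ± 5.34 and 145 ± 13.4 TPM, Mmp2 at 150 ± 23.8 and 122 ± 39.0 TPM and Adamts2 at 133 ± 6.47 and 133 ± 31.4 TPM, each with the homozygous value first. Across libraries these 5 genes overlapped in level, although Adamts1 and Adamts10 were each above Adamts2 in all 5 libraries. The lowest tested gene, Adamts18, stood at 0.114 ± 0.00790 TPM in homozygous and 0.0523 ± 0.0289 TPM in heterozygous libraries, so levels in the 3 families spanned more than 3 orders of magnitude.

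**Figure D1:**
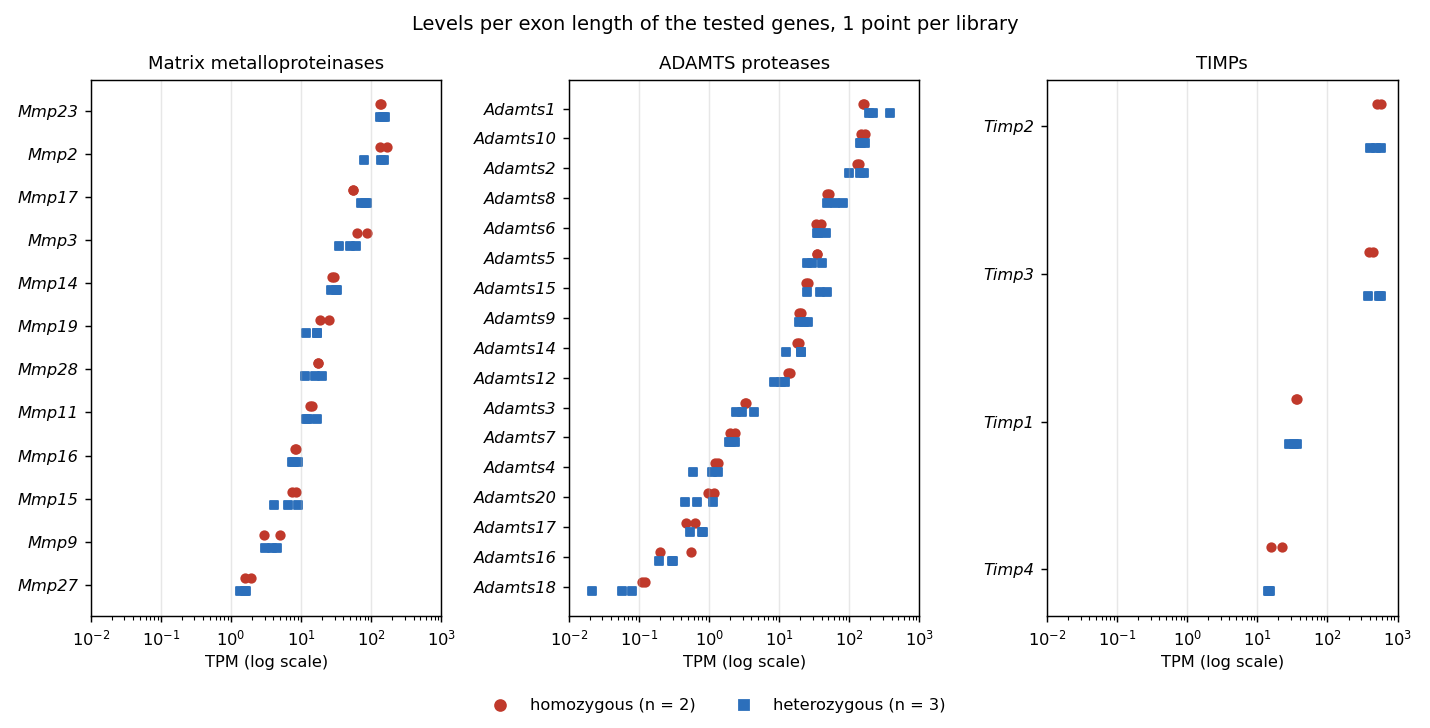
Level of each tested gene in TPM (log scale, horizontal axis) in 2 homozygous (red circles) and 3 heterozygous (blue squares) libraries, 1 point per library, with genes of each family ordered by mean level. Timp2 and Timp3 lie between 379.7 and 585.5 TPM in every library, and most genes show points of the 2 groups on top of each other.

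Summed over each family, the Mmp genes held 519 ± 45.1 TPM in homozygous and 491 ± 73.0 TPM in heterozygous libraries (SD, n = 2 and n = 3). The Timp genes held 1021 ± 76.7 TPM in homozygous and 1038 ± 195 TPM in heterozygous libraries. The Adamts sum was 657 and 658 TPM in homozygous libraries and 765, 756 and 807 TPM in heterozygous replicates 1, 2 and 3, so these groups did not overlap. With 2 against 3 libraries, a 2-sided exact permutation test cannot go below 0.2, the value it gave for the Adamts sum, and it gave 1 for each of the Mmp and Timp sums. Without Adamts1 the groups overlapped, and the sum was 497 ± 3.79 TPM in homozygous and 514 ± 72.6 TPM in heterozygous libraries (exact permutation p = 0.8). The ratio of summed proteases to summed TIMPs was 1.18 and 1.12 in homozygous and 1.09, 1.17 and 1.48 in heterozygous libraries, with the high value in heterozygous replicate 3.

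By design, homozygous and heterozygous aortae differ in whether Cre can cut both Srf alleles or 1. Srf encodes serum response factor. Its RNA averaged 41.8 CPM in homozygous and 62.9 CPM in heterozygous libraries. Neither the share of recombined cells nor the protein was measured here, so complete loss in smooth muscle cells was not tested. At least 1 count was present for 41 of the 46 genes, against 54.8% of all rows, and 33 (71.7%) passed the low-count filter and were tested (12 Mmp, 17 Adamts and 4 Timp), against 32.8% of all rows. None was called by edgeR's quasi-likelihood test at an adjusted p under 0.05, where the background over all 18192 genes tested was 0%. At an unadjusted p under 0.05, Mmp3, Mmp19, Adamts12 and Timp4 were higher and Mmp17 and Adamts15 lower in homozygous libraries, 6 of 33 or 18.2%, against 15.8% of all genes tested (9.04% higher and 6.75% lower). DESeq2 called Mmp17 lower and no other member, against 5.94% of the genes it tested (3.33% higher and 2.61% lower), and limma-voom called none. Libraries of the 2 groups did not overlap for 10 of 33 (30.3%, 7 higher and 3 lower), against 35.6% of all genes tested (17.4% higher and 18.2% lower). The shares at an unadjusted p and without overlap are near those of the whole table. Without a low-count filter edgeR called Mmp3, Mmp19 and Adamts12 higher and Mmp17, Adamts15 and Adamts1 lower. Those 6 are 14.6% of the 41 members in that fit, against 4.65% of its 30400 genes (3.23% higher and 1.42% lower). Among genes that pass the filter, the same fit called 18.2% of the 33 members, against 7.49% of all 18192, a larger share of members than of the table. That fit had 29.5 prior degrees of freedom, against 4.01 with the filter. Of its 6 genes only Mmp17 was called in another alternative, so the larger share rests on this setting. The log2 fold change was below 0 for 10 of 33, against 52.8% of all genes tested, and the median was 0.083, against -0.018 over all genes tested. By family the median was 0.117 for Mmp, 0.072 for Adamts and 0.185 for Timp.

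**Figure D2:**
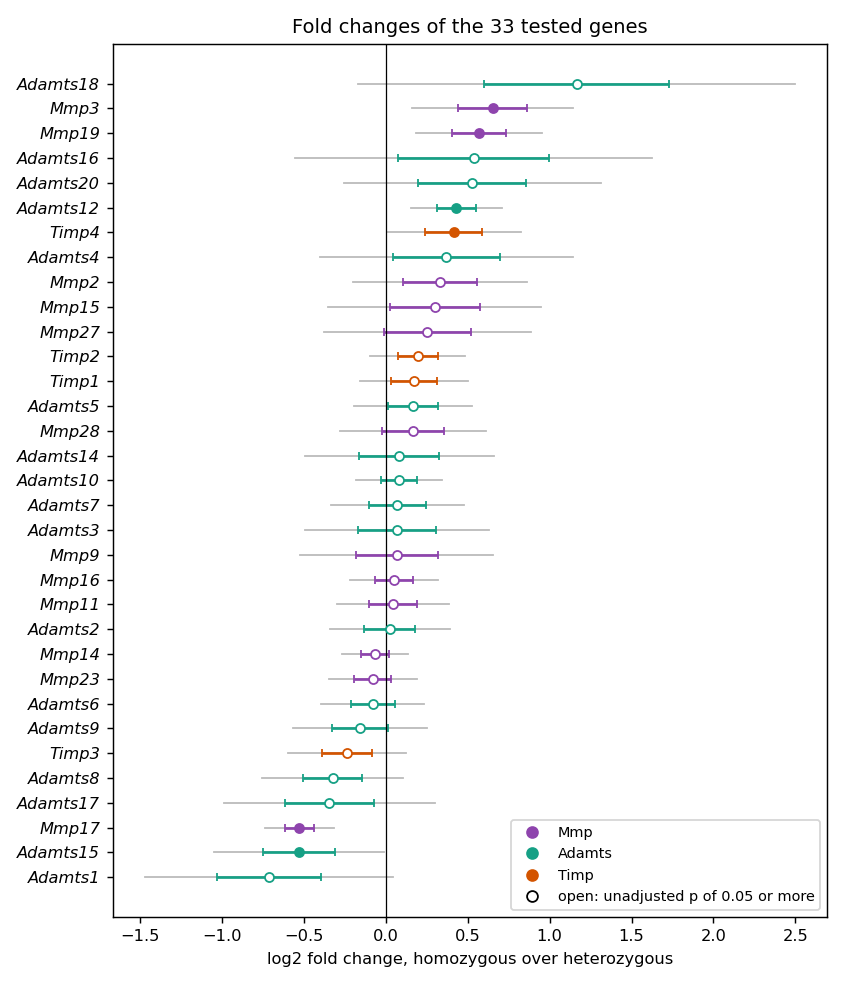
Log2 fold change, homozygous over heterozygous, of the 33 tested genes, with the standard error (coloured bars) and the 95% interval (grey lines). Filled points have an unadjusted edgeR p under 0.05. Values run from -0.71 (Adamts1) to 1.17 (Adamts18), and 27 of the 33 intervals include 0.

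Membrane-anchored metalloproteinases held the gene with the smallest p of the 3 families. Mmp17 (GRCm38 chr5:129584169-129611099, plus strand), an enzyme tied to the membrane by a lipid anchor whose loss in mice is known to alter aortic smooth muscle, stood at 104 and 101 CPM in homozygous replicates 2 and 3, against 152, 148 and 141 CPM in heterozygous replicates 1, 2 and 3. The libraries within each group lay close together and the groups were far apart. The log2 fold change of Mmp17 was -0.53 (SE 0.0888, 95% interval -0.735 to -0.315), with an edgeR unadjusted p of 0.000591 and adjusted p of 0.104. The adjusted p was 3.34e-05 in DESeq2 and 0.00696 in edgeR with no low-count filter, while the other 12 alternatives gave 0.0847 to 0.542, and the fold change stayed between -0.548 and -0.446 in all 14. The summed smooth muscle markers were lower in the same libraries, with a list median of -0.695 on the log2 scale over 10 genes. Of these, 9 had a log2 fold change below 0, and Des gave 0.04 (SE 0.321). Fewer smooth muscle cells and less marker RNA per cell cannot be told apart, and the part of either in the Mmp17 value was not tested.

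The transmembrane enzymes showed no such gap. Mmp14, which activates the Mmp2 precursor and cleaves collagen at the cell surface, stood at 47.1 and 48.2 CPM in homozygous and at 51.0, 50.8 and 47.8 CPM in heterozygous libraries. Its log2 fold change was -0.07 (SE 0.0844, 95% interval -0.27 to 0.13) and the groups overlapped. Mmp23, an unusual enzyme anchored by its amino end, stood at 94.1 and 85.7 CPM in homozygous and 97.6, 84.6 and 103 CPM in heterozygous libraries, a log2 fold change of -0.08 (SE 0.113). Mmp15 and Mmp16, close relatives of Mmp14, gave 0.30 (SE 0.275) and 0.05 (SE 0.114). Mmp15 gave 0.102 without heterozygous replicate 3 and 0.626 without heterozygous replicate 2, and Mmp16 gave -0.011 without heterozygous replicate 2. Their remaining relative Mmp24 was too low to test, as was Mmp25, which has a lipid anchor like Mmp17.

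Among the secreted metalloproteinases, Mmp3 and Mmp19 were the highest in homozygous aortae relative to control. Mmp3, stromelysin, which cleaves proteoglycans and activates other precursors, stood at 32.4 and 43.9 CPM in homozygous and at 23.9, 29.95 and 18.9 CPM in heterozygous libraries. The log2 fold change was 0.65 (SE 0.209), with an edgeR unadjusted p of 0.0167 and adjusted p of 0.212. Mmp19, which cleaves basement membrane proteins, stood at 19.2 and 24.5 CPM in homozygous and at 15.4, 16.4 and 12.3 CPM in heterozygous libraries, a log2 fold change of 0.57 (SE 0.164) with an edgeR adjusted p of 0.178. In both genes homozygous replicate 3 was the higher library and heterozygous replicate 3 the lowest. Summed fibroblast, adipocyte, skeletal muscle and lymphocyte markers were also highest in homozygous replicate 3 and lowest in heterozygous replicate 3. Macrophage markers were highest in homozygous replicate 3 too (575 CPM), but heterozygous replicate 3 was their highest control library (360 CPM). What part these cells have in Mmp3 or Mmp19 was not tested. Without homozygous replicate 3 the log2 fold change was 0.42 for Mmp3 and 0.38 for Mmp19. Exons of Tmem198b and Gm47093 on the opposite strand cover 28.3% of the exon bases of Mmp19, and Tmem198b had 411 and 389 counts in homozygous and 464, 389 and 337 in heterozygous libraries. Since the strand setting of the counting is not given, the Mmp19 count is uncertain.

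Mmp2, gelatinase A and the most studied protease of the aortic wall, stood at 130 and 156 CPM in homozygous and at 136, 126 and 79.0 CPM in heterozygous libraries. The groups overlapped, with heterozygous replicate 3 alone at the low end. The log2 fold change was 0.33 (SE 0.224) with an edgeR adjusted p of 0.528. Leaving out heterozygous replicate 3 gave 0.15, while leaving out homozygous replicate 3 gave 0.19. Over 14 alternatives the Mmp2 value ranged from 0.147 to 0.717, and none of them called Mmp2. Mmp9, gelatinase B of macrophages and neutrophils, was present at 3.04 and 4.85 CPM in homozygous and 3.26 to 4.27 CPM in heterozygous libraries, a log2 fold change of 0.07 (SE 0.249). Its sign turned in 3 of 14 alternatives, and it was -0.311 without homozygous replicate 3. The other tested secreted enzymes were Mmp11, Mmp27 and Mmp28, with log2 fold changes of 0.05, 0.25 and 0.17 and edgeR adjusted p from 0.696 to 0.914. Mmp27 libraries did not overlap, but each held only 22 to 35 counts.

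**Figure D3:**
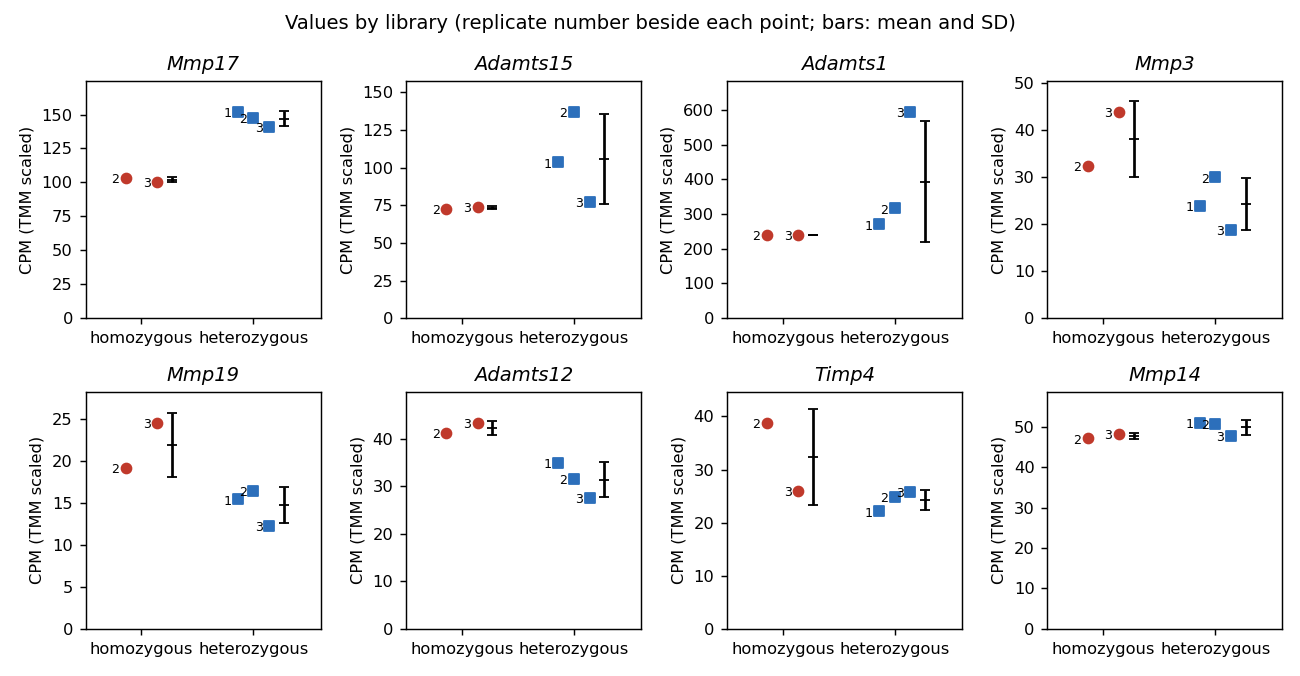
CPM per library (vertical axes start at 0) of 8 genes in 2 homozygous (red circles) and 3 heterozygous (blue squares) libraries, with the replicate number beside each point and the mean and SD to its right. Mmp17 separates tightly, Adamts1 separates mainly through heterozygous replicate 3, Timp4 mainly through homozygous replicate 2, and the Mmp14 points of both groups overlap.

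Among ADAMTS enzymes that cleave proteoglycans, Adamts1 and Adamts15 had the most negative log2 fold changes with all libraries, and Adamts4, Adamts5 and Adamts20 had positive ones. Adamts1 (GRCm38 chr16:85793827-85803113, minus strand), which cleaves versican and aggrecan, stood at 240.0 and 241 CPM in homozygous replicates 2 and 3, against 270 and 317 CPM in heterozygous replicates 1 and 2 and 594 CPM in heterozygous replicate 3. The groups did not overlap, but 1 control library set most of the distance. The log2 fold change was -0.71 (SE 0.319, 95% interval -1.47 to 0.04), with an edgeR adjusted p of 0.343, and without heterozygous replicate 3 it was -0.27 with an adjusted p of 0.285. Adamts5, its neighbour on the same strand of chromosome 16 and an aggrecanase, gave 0.17 (SE 0.153), and its libraries overlapped.

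Adamts15 and Adamts8 are neighbours on chromosome 9, transcribed away from each other, and both cleave proteoglycans. Adamts15 stood at 72.8 and 74.0 CPM in homozygous and at 103, 137 and 77.2 CPM in heterozygous libraries, a log2 fold change of -0.53 (SE 0.220, edgeR unadjusted p = 0.0471, adjusted p = 0.309). Heterozygous replicate 2 was the highest library, and without it the log2 fold change was -0.28 with an edgeR adjusted p of 0.489. With a covariate built from the numbers that the descriptions carry, the Adamts15 value was -0.086. Adamts8 stood at 67.9 and 62.2 CPM in homozygous and at 76.8, 102 and 65.7 CPM in heterozygous libraries. Its groups overlapped and the log2 fold change was -0.32 (SE 0.181), with the same control library highest as for Adamts15. The other proteoglycanases gave 0.37 (SE 0.327) for Adamts4, -0.16 (SE 0.172) for Adamts9 and 0.53 (SE 0.331) for Adamts20, and each had overlapping groups. Without heterozygous replicate 3 these were 0.158 for Adamts4, 0.03 for Adamts9 and 0.337 for Adamts20.

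Adamts12, which cleaves cartilage oligomeric matrix protein, was the ADAMTS gene with the smallest p. It stood at 41.3 and 43.4 CPM in homozygous and at 34.96, 31.6 and 27.5 CPM in heterozygous libraries, without overlap. The log2 fold change was 0.43 (SE 0.118), with an edgeR unadjusted p of 0.00802 and adjusted p of 0.165, and it ranged from 0.365 to 0.585 over 14 alternatives. The DESeq2 adjusted p for Adamts12 was 0.0593. Its closest relative Adamts7, studied in coronary disease, gave 0.07 (SE 0.172) at under 5 CPM.

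The enzymes that trim procollagen ends gave log2 fold changes near 0. Adamts2 stood at 345 and 356 CPM in homozygous and at 395, 360 and 277 CPM in heterozygous libraries, a log2 fold change of 0.03 (SE 0.155). Adamts3 and Adamts14, which share this role, gave 0.07 (SE 0.236) and 0.08 (SE 0.244). Adamts3 was -0.048 without heterozygous replicate 3, and Adamts14 was -0.143 without heterozygous replicate 1. Adamts10, which binds fibrillin microfibrils, stood at 399 and 340 CPM in homozygous and at 368, 331 and 348 CPM in heterozygous libraries, a log2 fold change of 0.08 (SE 0.110). Adamts6, a close relative of Adamts10, stood at 74.9 and 84.6 CPM in homozygous and at 96.6, 73.8 and 82.2 CPM in heterozygous libraries, a log2 fold change of -0.08 (SE 0.133). In all of these the groups overlapped. Adamts17, also linked to fibrillin, gave -0.34 (SE 0.272), and Adamts16 gave 0.54 (SE 0.461), which rested on homozygous replicate 3 with 34 counts against 10 to 19 in each other library, and was -0.355 without it. Adamts18 passed the filter with 9 and 11 counts in homozygous and 5, 2 and 6 counts in heterozygous libraries, and its log2 fold change of 1.17 has a 95% interval from -0.17 to 2.50, too wide to judge.

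None of the 4 inhibitors was called by edgeR. Timp3 stood at 925 and 999.9 CPM in homozygous and at 1257, 1216 and 926 CPM in heterozygous libraries, with heterozygous replicate 3 at the level of the homozygous libraries, and the log2 fold change was -0.24 (SE 0.153, edgeR adjusted p = 0.510). Timp2 stood at 580 and 629 CPM in homozygous and at 588, 526 and 469 CPM in heterozygous libraries, a log2 fold change of 0.20 (SE 0.123, edgeR adjusted p = 0.495). Timp1, the inducible soluble inhibitor, stood at 9.05 and 9.09 CPM in homozygous and at 7.72, 8.90 and 7.48 CPM in heterozygous libraries, just without overlap, and gave 0.17 (SE 0.139, edgeR adjusted p = 0.600). Timp4, an inhibitor abundant in heart and fat, stood at 38.8 and 26.02 CPM in homozygous and at 22.2, 24.8 and 25.9 CPM in heterozygous libraries. The lower homozygous library was level with the highest control, so the log2 fold change of 0.42 (SE 0.173, edgeR adjusted p = 0.309) rested on homozygous replicate 2 and was 0.10 without it. Adipocyte markers were high in both homozygous libraries, and their part in Timp4 was not tested. Timp1, Timp3 and Timp4 lie inside the synapsin genes Syn1, Syn3 and Syn2 on the opposite strand. Syn3 exons cover 21.3% of Timp3's exon bases, but Syn3 had only 182 to 283 counts per library, against 23281 to 40992 for Timp3.

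The remaining 13 genes were too low to judge. Mmp1a, Mmp1b, Mmp7, Mmp10 and Mmp20 had 0 counts in every library, which allows up to 3 counts per library or 0.115 CPM in the smallest one (counting error only). Adamts13, the von Willebrand factor protease, had 1 count in each of 1 homozygous and 1 heterozygous library. Mmp21 had 0 and 2 counts in homozygous and 1 count in each heterozygous library, and Mmp24 had 2 and 2 counts in homozygous and 3, 1 and 0 in heterozygous libraries. Mmp25, a leukocyte enzyme with a lipid anchor, had 4 and 8 counts in homozygous and 4, 2 and 1 in heterozygous libraries, and Adamts19 had 5 and 12 counts in homozygous and 2, 1 and 3 in heterozygous libraries. Mmp12, macrophage elastase, had 8 and 2 counts in homozygous and 5, 5 and 6 in heterozygous libraries, although summed macrophage markers were higher in both homozygous libraries. Mmp13, the main interstitial collagenase of rodents, had 3 and 7 counts in homozygous and 6, 6 and 3 in heterozygous libraries. Mmp8, neutrophil collagenase, had 1 and 2 counts in homozygous libraries and 0, 3 and 24 counts in heterozygous replicates 1, 2 and 3. Neutrophil markers were highest in that same heterozygous replicate 3, at a summed 12.1 CPM, against 3.46 and 2.27 CPM in homozygous and 1.57 and 1.54 CPM in heterozygous replicates 1 and 2. Of these markers S100a9 had 4.42 CPM and Ngp 0.278 CPM there, while Ngp was at 0 in the other 4 libraries. Elane went the other way, with 0.0398 CPM there against 0.0615 and 0.148 CPM in heterozygous replicates 1 and 2. What part neutrophils have in the Mmp8 counts was not tested.

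**Figure D4:**
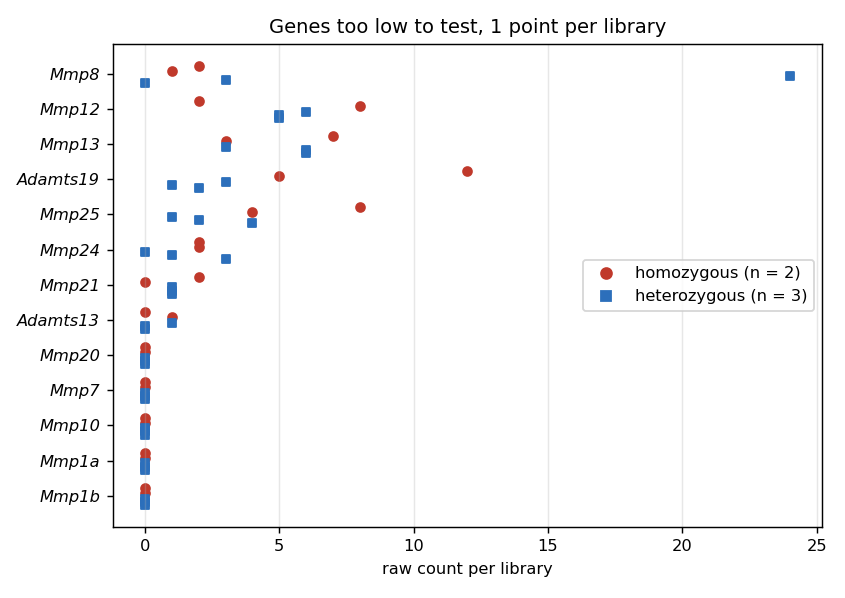
Raw counts per library (horizontal axis) of the 13 genes that did not pass the low-count filter, in 2 homozygous (red circles) and 3 heterozygous (blue squares) libraries. The 24 counts of Mmp8 in heterozygous replicate 3 are the highest value of any gene shown, and 5 genes are at 0 in every library.

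Of the 13 low genes, 8 lie together. Of 10 Mmp genes clustered on chromosome 9 between 7272514 and 7699585 (GRCm38), Mmp3 and Mmp27 were tested and the other 8 were too low to judge, although Mmp3 alone averaged 75.0 ± 17.99 TPM in homozygous and 48.6 ± 12.8 TPM in heterozygous libraries (SD, n = 2 and n = 3). Promoter windows of 250 bases before to 50 bases after the gene start (RefSeq, GRCm38.p6) were at hand for 32 of the 46 genes, in 35 windows. The AP-1 box, the binding sequence of Fos and Jun proteins, was searched as TGANTCA, which reads the same on both strands. It occurred in 8 of the 35 windows (22.9%), against 7.81% of all 32851 windows. By gene these are 8 of 32 (25%), all in the chromosome 9 cluster, against 8.97% of all 27025 genes with a window. Mmp8 and Mmp27, the other 2 genes of the cluster, had none. The matches are shown because they set Mmp3, which was expressed, beside neighbours that also hold the box and have 0 to 8 counts per library. Each is given 5′ to 3′ on the strand of its gene with 20 flanking bases and the box in capitals.
Mmp3, chr9:7445756-7445802, plus strand: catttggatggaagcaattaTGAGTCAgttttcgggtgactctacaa
Mmp13, chr9:7272459-7272505, plus strand: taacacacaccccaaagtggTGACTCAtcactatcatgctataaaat
Mmp12, chr9:7347310-7347356, plus strand: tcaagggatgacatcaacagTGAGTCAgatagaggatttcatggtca
Mmp1a, chr9:7464048-7464094, plus strand: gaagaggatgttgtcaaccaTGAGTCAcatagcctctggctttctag
Mmp1b, chr9:7388093-7388139, minus strand: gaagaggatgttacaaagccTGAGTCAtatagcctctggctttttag
Mmp10, chr9:7502259-7502305, plus strand: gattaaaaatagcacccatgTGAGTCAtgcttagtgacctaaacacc
Mmp20, chr9:7628116-7628162, plus strand: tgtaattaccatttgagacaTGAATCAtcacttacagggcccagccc
Mmp7, chr9:7692007-7692053, plus strand: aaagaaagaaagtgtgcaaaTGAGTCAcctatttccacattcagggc

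The first base of the box lay at -46 from the annotated start in Mmp3 and between -95 and -35 in the other 7 genes. On the strand of the gene, the box reads TGAGTCA in all of them except Mmp13 (TGACTCA) and Mmp20 (TGAATCA). The Mmp13 box is TGAGTCA when read on the opposite strand. The CArG box, the binding sequence of serum response factor, was searched as CCWWWWWWGG, where W is A or T. It was in 0 of the 35 windows of these genes, against 1.63% of all windows. Only exact matches were counted, and looser forms of the box were not searched. At so low a background, 35 windows are too few to tell 0 matches from the share over all windows. A match is a stretch of letters and was not tested as a binding site. The absence of one holds for these windows and the exact pattern alone. No window was at hand for Mmp17, Mmp19 and Mmp2, so these genes were not searched for either box.

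Genes that work beside the 3 families were compared from lists, with edgeR calling 0 members of any list at an adjusted p under 0.05. The ADAMTS-like proteins, which resemble ADAMTS enzymes without their protease domain and bind microfibrils, had a median log2 fold change of -0.21 over 7 tested genes, with 3 lower and 0 higher at an unadjusted p under 0.05. Over all genes tested, 6.75% were lower and 9.04% higher at that p, which is the background for this and the following lists. Thsd4, a promoter of fibrillin assembly, stood at 663 and 673 CPM in homozygous and at 957, 896 and 1091 CPM in heterozygous libraries. The Thsd4 log2 fold change was -0.55 (SE 0.119), with an adjusted p of 0.116 by edgeR and 0.000632 by DESeq2. Adamtsl2 gave -0.44 (SE 0.150) and Adamtsl3 -0.30 (SE 0.125), both without overlap between groups.

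Matrix substrates had a median log2 fold change of -0.25 over 15 tested genes, with 5 lower and 1 higher at an unadjusted p under 0.05. Versican, Vcan, a substrate of Adamts1, stood at 128 and 132 CPM in homozygous and at 159, 150 and 181 CPM in heterozygous libraries, a log2 fold change of -0.33 (SE 0.109, edgeR adjusted p = 0.224). The basement membrane chains Col4a1 and Col4a2 gave -0.49 (SE 0.123) and -0.48 (SE 0.116), and DESeq2 called both lower (adjusted p = 0.00523 and 0.00303). Eln, elastin, was the only one higher at an unadjusted p under 0.05, with a log2 fold change of 0.40 (SE 0.115, edgeR adjusted p = 0.176, DESeq2 adjusted p = 0.00363), while Col3a1 gave -0.30 (SE 0.216).

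Plasminogen activation, which produces plasmin to activate metalloproteinase precursors, had a median of 0.006 over 9 tested genes, with 0 at an unadjusted p under 0.05. Lrp1, the receptor that clears proteases from the wall, gave -0.02 (SE 0.121). Activators and inhibitors outside the TIMPs had a median of -0.08 over 8 tested genes, with Spock2 (0.23, SE 0.0943) the 1 gene at an unadjusted p under 0.05. Bsg, an inducer of metalloproteinases, gave 0.14 (SE 0.119), and Furin, which removes the prodomain of membrane-type and ADAMTS enzymes, gave -0.13 (SE 0.0949).

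Membrane ADAM proteases had a median of 0.12 over 10 tested genes, with 1 higher and 0 lower at an unadjusted p under 0.05. That gene was Adam12, a protease of mesenchymal cells and muscle, with a log2 fold change of 1.03 (SE 0.296), an edgeR adjusted p of 0.179 and a DESeq2 adjusted p of 0.0206. It stood at 39.1 and 26.8 CPM in homozygous and at 11.3, 22.8 and 14.2 CPM in heterozygous libraries. Adam9 and Adam33 gave -0.13 (SE 0.0842) and -0.01 (SE 0.183). Astacin proteases and their enhancers had a median of 0.06 over 5 tested genes, with Tll1 (0.62, SE 0.241) at an unadjusted p under 0.05, and Bmp1 and Pcolce at 0.06 (SE 0.112) and 0.29 (SE 0.149). Cathepsins and cystatin C had a median of 0.17 over 10 tested genes, with Ctsb at 0.17 (SE 0.115), Cst3 at 0.11 (SE 0.130) and Ctss, a macrophage cathepsin, at 0.76 (SE 0.262), the 1 gene at an unadjusted p under 0.05.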

How the data were processed

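Poly(A) RNA of mouse aortae was sequenced from stranded libraries, per the labels. Per the submitters' processing notes, the tools were STAR 2.7.0f, featureCounts from the Subread package 1.6.4, and fastp 0.20.0, and the genome build was GRCm38. For featureCounts, the sources used here give neither strand setting nor annotation release. The deposited values are raw counts per gene.

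Genes were filtered with filterByExpr, scaled by TMM and fitted on group alone with edgeR's quasi-likelihood test (version 4.0.16, run under R 4.3.3) over 18192 genes, with Benjamini-Hochberg adjustment over all of them and a threshold of 0.05. Intervals at 95% use the fit's standard error with 3 residual and 4.01 prior degrees of freedom. SDs are over libraries. TPM used merged exon lengths of GENCODE M21 (GRCm38), where all 46 genes matched 1 gene. Each library came from 1 aorta, so p-values measure the spread between 5 samples. Every pair of libraries differed by more than sampling noise. The script was tested on simulated data.

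Genes given in every library were the 5 highest per length of each family and those at an unadjusted edgeR p or a DESeq2 adjusted p under 0.05. Of each list, the 2 most abundant genes and up to 4 at an unadjusted p under 0.05 were named. A gene that this rule names is not reported here. The members, lists and tests were chosen with earlier results of these data known. Alternatives were RLE and upper-quartile scaling, 2 other low-count filters, DESeq2 1.42.0, limma-voom (limma 3.58.1), each library left out, a replicate block, a covariate built from the numbers that the descriptions carry, and a fit that drops mitochondrially encoded genes, Rn7sk and Gm26917.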

Additional observations from a re-analysis of the deposited data

How the results depend on the processing

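The median log2 fold change of the tested members was 0.083 and ranged from 0.046 to 0.143 with single libraries left out. A covariate built from the numbers that the descriptions carry (number term), which compares homozygous replicate 2 with heterozygous replicate 3 alone, gave 0.199; the cause was not tested. No member was called with any library left out, under other scalings, the stricter filter, limma-voom, the number term or omission of mitochondrial genes with Rn7sk and Gm26917. DESeq2 called 0 members higher and 1 lower (Mmp17). Without a low-count filter, 3 members were called higher (Mmp3, Mmp19, Adamts12) and 3 lower (Mmp17, Adamts15, Adamts1) by edgeR, and the fit's prior degrees of freedom were 29.5, against 4.01 with the filter.

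Over all genes, edgeR called 0 higher and 0 lower, DESeq2 524 and 411, edgeR without that filter 982 and 432, limma-voom 0 and 1, and the number term 8 and 1. With single libraries left out, 0 to 139 genes were called higher and 0 to 9 lower, with 139 and 9 without heterozygous replicate 2 and 1 and 0 without homozygous replicate 3. Where 1 homozygous library is left, its spread is taken from the other group.

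The groups share replicate numbers 2 and 3. Deviations of same-numbered libraries gave r = -0.01 and -0.194 across genes. With 2 homozygous libraries their deviations mirror each other, so these values cannot decide whether the numbers mark pairs. The numbers are not taken as pairs in the main fit. A replicate block gave 3 higher and 2 lower over all genes and 0 members. Under it the sign of Adamts6 turned (0.031), as it did without heterozygous replicate 1 (0.033) and without homozygous replicate 2 (0.004). With single libraries left out, Adamts6 ranged from -0.167 to 0.033, Adamts10 from -0.041 (without homozygous replicate 2) to 0.196 and Adamts2 from -0.091 (without heterozygous replicate 3) to 0.14. Adamts8 turned with the number term (0.049), while Adamts15 and Timp3 kept their sign there at -0.086 and -0.003. In all, 11 of 33 tested members turned sign in at least 1 alternative. The others were Mmp9, Mmp16, Adamts3, Adamts7 (-0.007 without homozygous replicate 3), Adamts9, Adamts14 (-0.145 with the replicate block, -0.124 with the number term) and Adamts16, and none of the 11 was called in any alternative. Depth limits the 13 untested genes and Adamts16, Adamts18 and Mmp27.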
